A study of Saccharomyces cerevisiae with 5 samples.

Results

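The molecules described here are single Nanopore reads of the ARS315 chromatin ring that were open or closed at the Tvs1 promoter, next to the replication origin ARS315 of Saccharomyces cerevisiae. They were chosen by the promoter alone. For each read, the share of methylated positions over the promoter center, the 180 ring columns that follow column 930, was set relative to the average of a spike-in with regularly spaced nucleosomes, the nucleosomal array, from the same library and strand. A molecule with a promoter level below 1 was called closed, and a molecule with a level of 2 or more was called open. Of 7717 ARS315 molecules, 5483 were open and 508 were closed, together 5991 molecules of the 43459 reads in the series. The other 1726 molecules, with a level from 1 to below 2, are called intermediate and were left out of the comparison of open with closed.

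MATAC-Seq marks accessible DNA of purified chromatin with methyltransferases, and the methylated bases are then read on single molecules. A base wrapped in a nucleosome or covered by another protein is protected and stays unmethylated. A yeast replication origin has a nucleosome-free region (NFR) over the ARS consensus sequence, where the origin recognition complex binds, flanked by positioned nucleosomes. Yeast promoters also have a nucleosome-free region, where transcription factors and the transcription machinery bind. The question of the comparison was whether molecules of the same locus that differed at the promoter also differed at the origin beside it.

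The rings came from cells grown in raffinose medium and arrested in G1 with alpha-factor, while galactose induced the recombinase that excises the ring. Data of 5 libraries were used, 1 of wildtype (labelled replicate 2), 2 of isw2Δ and 2 of ies6Δ. All strains were MATa, ura3Δ0, leu2Δ0, his3Δ1, met15Δ0 and bar1::kanMX4, with recombination sites and LexA binding sites around ARS315, LexA-TAP under the TEF2 promoter and the R recombinase under the GAL1-10 promoter. The isw2Δ strain (isw2Δ::ura3) lacks the catalytic subunit of the ISW2 nucleosome-spacing remodeler, and the ies6Δ strain (ies6Δ::his) lacks a subunit of the INO80 remodeling complex. The study's text and legends speak of biological replicates, and p-values rest on the spread between these libraries. For regions and windows, limma draws the spread of each one toward that of all of them. Regions and windows come from the same molecules, and a limma SE or p-value does not measure the spread of 1 of them alone. Each genotype was represented by a single strain at this locus. Neither deletion could be checked from these data, which hold methylation calls of rings and spike-ins.

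TVS1 (YCR061W) lies on chromosome III from 225563 to 227458 in assembly R64, and its upstream neighbor in the annotation is TAH1 (YCR060W), from 224399 to 224734. Ring positions are column numbers of the deposited tables, and the ring was not placed on the chromosome here. The origin side is defined as columns 1 to 840, and the NFR of the ARS follows column 480 and ends at column 600. The promoter minus flank follows column 840 and ends at column 930, where the promoter center starts, and the promoter plus flank extends from the end of the promoter center to the end of the ring. The origin lies on the side of the lower column numbers.

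The deposited tables held 780 molecules of ARS315 for each library and strand, apart from 697 forward reads in wildtype. With the array level of each library, most molecules were open at the promoter. In wildtype, 79.2% of 1477 molecules were open (95% Wilson interval 77.0 to 81.1%) and 5.08% were closed (4.07 to 6.32%). In isw2Δ, 67.6% were open in replicate 1 and 75% in replicate 2, while 6.47% and 3.14% were closed. In ies6Δ, 65.3% and 68.7% were open, and 8.91% and 9.23% were closed. The closed share was thus above that of wildtype in both ies6Δ libraries, whereas the isw2Δ libraries lay on either side of it. This order depended on the array level of each library. With 1 array level for all libraries, wildtype had the highest closed share, with 88 forward and 87 reverse molecules. Closed molecules then numbered 70 and 69, and 88 and 79, in the ies6Δ replicates, and 34 and 43, and 11 and 15, in those of isw2Δ. These shares follow from the rule and were not tested. Wilson intervals cover the counting of molecules only.

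The class sizes were uneven. Each library and strand held a median of 536 and up to 649 open molecules but only 20 to 77 closed ones, with the fewest closed molecules in isw2Δ replicate 2 (20 reverse and 29 forward) and in wildtype (27 forward and 48 reverse). The median promoter level of open molecules was 2.61 to 3.45 over the 10 combinations of library and strand, and that of closed molecules was 0.446 to 0.901. On a single molecule, this was a median of 20 to 31 methylated positions among the 180 columns of the promoter center in open molecules, and of 3 to 10 in closed molecules. At the thresholds, the highest closed values were 0.861 to 0.992, intermediate values extended from 1.0 to 1.98, and the lowest open values were 2.01 to 2.10. Values advanced in steps of a single call, since the array level corresponded to only 5.81 calls over the promoter center in wildtype forward reads and to 11.1 calls in isw2Δ replicate 1 reverse reads. The mean share of methylated columns in the array was 3.23 to 3.74% in wildtype and 4.51 to 6.17% in the mutant libraries, so a wildtype molecule was assigned from fewer calls.

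**Figure D1:**
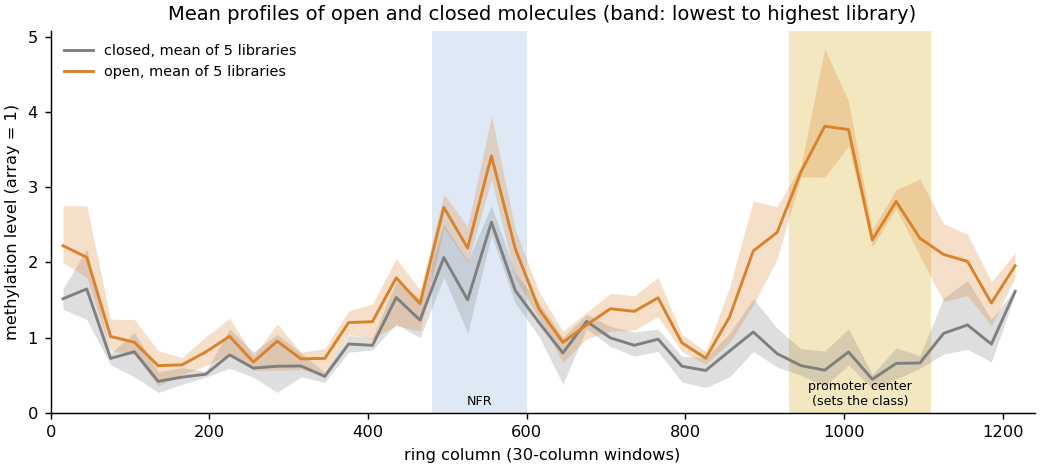
Mean methylation level (y axis, nucleosomal array of the same library = 1) along the ring in 30-column windows for closed and open molecules. Lines are means of 5 libraries and bands run from the lowest to the highest library. Open molecules lie above closed ones over nearly all of the origin side, with the origin-side peak of both classes in the NFR, and the promoter center differs because it set the classes.

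Open molecules were more methylated on the origin side than closed molecules of the same library. In wildtype, the origin-side level was 0.768 in closed and 1.04 in open forward reads, and 1.15 and 1.35 in reverse reads. In isw2Δ replicate 1, it was 1.08 and 1.35 in forward reads and 1.0 and 1.44 in reverse reads, and in replicate 2 it was 0.960 and 1.25, and 1.12 and 1.5. In ies6Δ replicate 1, it was 1.03 and 1.41 in forward reads and 0.998 and 1.5 in reverse reads, and in replicate 2 it was 1.06 and 1.29, and 1.09 and 1.42. Within every library and strand, the open class was the higher one, by 1.18-fold (wildtype reverse) to 1.5-fold (ies6Δ replicate 1 reverse).

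Averaged over both strands, open molecules exceeded closed ones 1.26-fold for wildtype, 1.34-fold and 1.32-fold for the isw2Δ replicates, and 1.44-fold and 1.26-fold for those of ies6Δ. The mean log2 ratio was 0.40 ± 0.08 (SD, n = 5 libraries), a 1.32-fold difference. The exact sign-flip permutation test over the 5 libraries gave p = 0.0625 (two-sided), which is the smallest p that 5 libraries allow. Single molecules of both classes overlapped widely. In ies6Δ replicate 1 reverse reads, the middle 50% of closed molecules ranged from 0.658 to 1.25 and that of open molecules from 0.987 to 2.02.

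**Figure D2:**
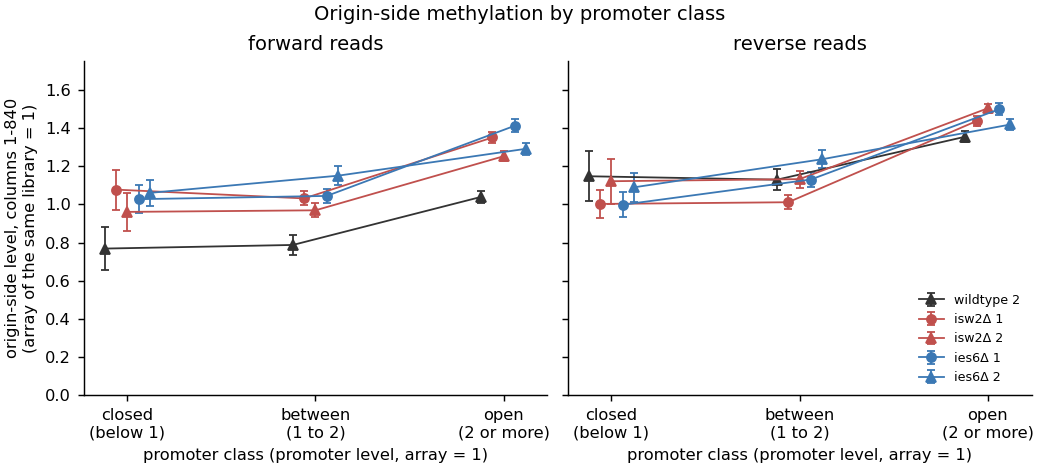
Mean origin-side level (y axis, columns 1 to 840, array = 1) of closed, intermediate and open molecules in forward reads (left) and reverse reads (right). Points are means of single libraries and bars are standard errors over molecules. Closed and intermediate molecules lie at similar levels, and open molecules lie above both in all 10 combinations.

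Intermediate molecules were close to the closed ones. Mean origin-side levels over the 10 combinations of library and strand were 0.768 to 1.15 in closed, 0.787 to 1.24 in intermediate and 1.04 to 1.5 in open molecules. The log2 ratio of intermediate to closed molecules was 0.05 on average (exact sign-flip permutation test, two-sided, p = 0.3125, n = 5 libraries, positive in 4 of 5), compared with 0.40 for open molecules. Open molecules had the highest origin-side level in 5 of 5 libraries. By the mean level over both strands, closed molecules were below intermediate ones in 3 of 5 libraries, since wildtype had 0.972 in closed and 0.971 in intermediate molecules, while the log2 ratios above are averages of the strands' ratios.

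A relation of this kind was also present in the spike-ins, which are other DNA templates. When array molecules were split at the same thresholds over the column numbers of the promoter center, those of 2 or more had 1.62 to 2.16 times the level of those below 1 over columns 1 to 840, compared with 1.18 to 1.5 times at ARS315. The same split of the naked plasmid gave 0.958 to 6.88 times (median 3.58), with as few as 1 plasmid molecule below 1. Spearman's rho between both stretches over single molecules was 0.204 to 0.452 (median 0.310) at ARS315, 0.346 to 0.642 (median 0.486) in the array and 0.232 to 0.648 (median 0.319) in the naked plasmid, over 10 combinations of library and strand each. Molecules with more calls in one stretch thus tended to have more in the other in all of these templates, and the values are a description over molecules that share a library, with no test. How much of the higher level of open molecules belongs to the level of the whole molecule cannot be told apart from these values. For this reason, each molecule was also divided by its own mean over columns 1 to 840, and these values are called scaled. Scaled values average 1 over the origin side, so that a higher value at one place comes with lower values elsewhere.

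Before scaling, open molecules had the higher mean level in all regions of the ring. All 9 regions of the ring outside the promoter center were higher in open molecules (limma, adjusted p below the threshold of 0.05, 9 of 9 tested, 100%), and so were 28 of 35 windows of 30 columns (80%). None was lower past the threshold in limma (0%), nor at an unadjusted p below 0.05 (0 windows). Of the remaining 7 windows, 6 had positive mean log2 ratios and the window at columns 661 to 690, on the plus side of the ARS, had -0.06. The smallest region difference was that of the plus side of the ARS (after column 600, up to column 720), with a log2 ratio of 0.20 ± 0.07 (SE, n = 5, limma adjusted p = 0.0121), a call that was lost in 7 of 16 alternatives (among them without isw2Δ replicate 1, at 0.0551, and without ies6Δ replicate 1, at 0.0665) and had the opposite sign in the comparison of intermediate with closed molecules, and the largest was that of the promoter minus flank (after column 840, up to column 930), with 1.14 ± 0.08 (adjusted p = 1.14e-07). The promoter-proximal stretch (0.42 ± 0.13, limma adjusted p = 0.00904) was higher in 4 of 5 libraries, with 0.678 in closed and 0.651 in open molecules of ies6Δ replicate 2. The SD of its log2 ratio over the libraries was 0.43, the largest of the 9 regions. Its call was lost without isw2Δ replicate 1 (0.0571), without isw2Δ replicate 2 (0.0664) and on forward reads alone (0.219).

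The NFR, the most methylated region of the origin side in 4 of 5 libraries (wildtype had a higher level at the ring start), was higher in open molecules of every library. Its level was 1.90 in closed and 2.46 in open molecules of wildtype, 1.73 and 2.58 in isw2Δ replicate 1, 2.06 and 2.65 in isw2Δ replicate 2, 1.85 and 2.62 in ies6Δ replicate 1, and 2.12 and 2.84 in ies6Δ replicate 2. The library means of the classes did not overlap, as the highest closed mean (2.12) was below the lowest open mean (2.46). Single molecules did overlap. An NFR level of at least 2 was reached by 38.1 to 60% of closed and 46.5 to 82.1% of open molecules, by library and strand. The log2 ratio was 0.45 ± 0.06 (SE, n = 5, limma adjusted p = 4.14e-05). The difference was seen at single positions as well. At the position between columns 360 and 840 with the highest methylation over all molecules (column 568, reverse strand), 52.1% of closed and 68.9% of open molecules were methylated in wildtype, 76.2 and 86.0% in isw2Δ replicate 1, 65.0 and 86.6% in isw2Δ replicate 2, 63.8 and 81.9% in ies6Δ replicate 1, and 65.7 and 81.8% in ies6Δ replicate 2. More than 50% of closed molecules were methylated there in each library. The next 5 positions in this order all lay in the NFR, and the open class was higher at each of them in each library, by 2.4 to 27.4 percentage points. Apart from column 549 of the forward strand, they lay in columns 566 to 575 of the reverse strand. They were thus read on the same molecules as column 568 and are not independent of it. These shares are as measured, without scaling.

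After scaling, differences remained in fewer places. Of the 9 regions, 1 was higher in open molecules (11.1%), the promoter minus flank, and 1 was lower (11.1%), the plus side of the ARS. Of the 35 windows, 3 were higher (8.57%) and 2 were lower (5.71%). The 3 higher windows all bordered the promoter center or lay within 60 columns of it, and both lower windows lay on the origin side.

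**Figure D3:**
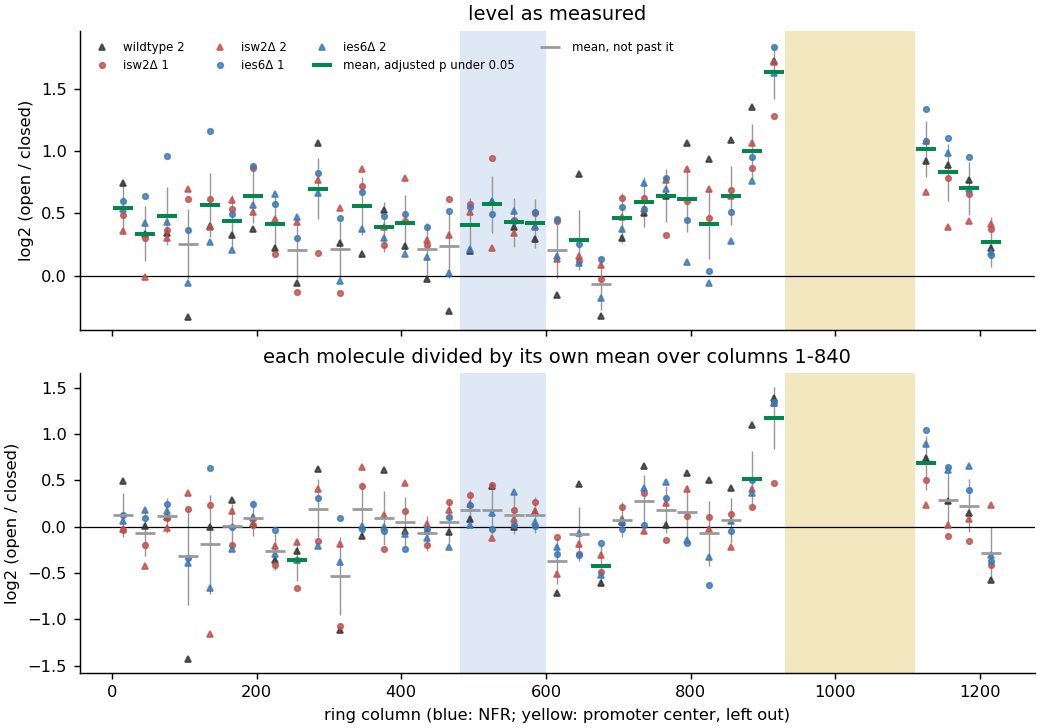
Log2 ratio of open to closed molecules (y axis) in 35 windows of 30 columns along the ring, as measured (top) and after division of each molecule by its own origin-side mean (bottom). Points are libraries, dashes are means of the 5 libraries with 95% intervals, and green dashes passed an adjusted p of 0.05. Nearly all windows are above 0 before scaling, while after scaling most lie around 0 and the windows beside the promoter center remain high.

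On the plus side of the ARS, the side on which the first downstream nucleosome lies in the usual layout of an origin, open molecules had a smaller share of their calls. The scaled level was 1.08 in closed and 0.829 in open molecules of wildtype, 0.988 and 0.884 in isw2Δ replicate 1, 1.06 and 0.905 in isw2Δ replicate 2, 1.01 and 0.878 in ies6Δ replicate 1, and 0.863 and 0.757 in ies6Δ replicate 2. Each library had a lower value in the open class, although the ranges of both classes overlapped between libraries. The log2 ratio was -0.23 ± 0.06 (SE, n = 5, limma adjusted p = 0.0217). Within this region, the window at columns 661 to 690 had a log2 ratio of -0.42 (limma adjusted p = 0.0237), a call that was lost in 7 of 19 alternatives, among them without isw2Δ replicate 1 (0.0580), without ies6Δ replicate 2 (0.0988), with calls at both ends (0.160) and on either strand alone (0.470 forward and 0.220 reverse). Its scaled level was 1.17 in closed and 0.771 in open molecules of wildtype, and the ratio of open to closed was 0.658 there, 0.714 and 0.807 for the isw2Δ replicates, and 0.883 and 0.699 for those of ies6Δ. The call of the region was lost in 9 of 18 alternatives, among them forward reads alone (adjusted p = 0.465) and reverse reads alone (adjusted p = 0.305). Without isw2Δ replicate 2, ies6Δ replicate 1 or ies6Δ replicate 2, limma gave adjusted p = 0.0883, 0.0692 and 0.0846, while the log2 ratio was negative in every alternative (-0.31 to -0.12).

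The other lower window lay in the minus-side flank, at columns 241 to 270, with a log2 ratio of -0.36 (limma adjusted p = 0.0392). The scaled ratio of open to closed was 0.834 for wildtype, 0.633 and 0.892 for the isw2Δ replicates, and 0.780 and 0.778 for those of ies6Δ. It missed the threshold in 13 of 19 alternatives, among them the fits without isw2Δ replicate 1 (adjusted p = 0.0696) and without either ies6Δ library (0.0906 and 0.117). The minus-side flank as a whole (columns 61 to 360) had a log2 ratio of -0.17 ± 0.08 (adjusted p = 0.101) and was lower in 4 of 5 libraries.

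The NFR kept a positive log2 ratio in each library after scaling but did not pass the threshold. Its scaled level was 1.87 in closed and 2.09 in open molecules of wildtype, 1.66 and 2.03 in isw2Δ replicate 1, 1.94 and 2.07 in isw2Δ replicate 2, 1.89 and 1.97 in ies6Δ replicate 1, and 2.02 and 2.28 in ies6Δ replicate 2. The log2 ratio was 0.15 ± 0.06 (SE, n = 5, limma adjusted p = 0.0836, 95% interval 0.01 to 0.30). When the class means instead of the molecules were divided by their origin-side mean, it was 0.05 (adjusted p = 0.504), and it passed the threshold in 4 of 18 alternatives. The plus-side linker (after column 720, up to column 810), the stretch between the plus side of the ARS and the promoter-proximal stretch, had a log2 ratio of 0.20 ± 0.07 (adjusted p = 0.0524) and was likewise higher in 5 of 5 libraries, and it passed in 5 of 18 alternatives. Its scaled level was 0.640 in closed and 0.814 in open molecules of wildtype, and the ratio of open to closed was 1.27 for wildtype, 1.06 and 1.12 for the isw2Δ replicates, and 1.06 and 1.25 for those of ies6Δ.

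The remaining regions of the origin side showed no common direction after scaling. Log2 ratios were 0.03 ± 0.08 at the ring start (columns 1 to 60, adjusted p = 0.75, higher in 3 of 5 libraries), 0.02 ± 0.07 in the minus-side shoulder (after column 360, up to column 480, adjusted p = 0.75, higher in 2 of 5) and -0.07 ± 0.14 in the promoter-proximal stretch (after column 810, up to column 840, adjusted p = 0.75, higher in 2 of 5). The 95% interval of the last extended from -0.38 to 0.24, which covers differences of either sign.

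**Figure D4:**
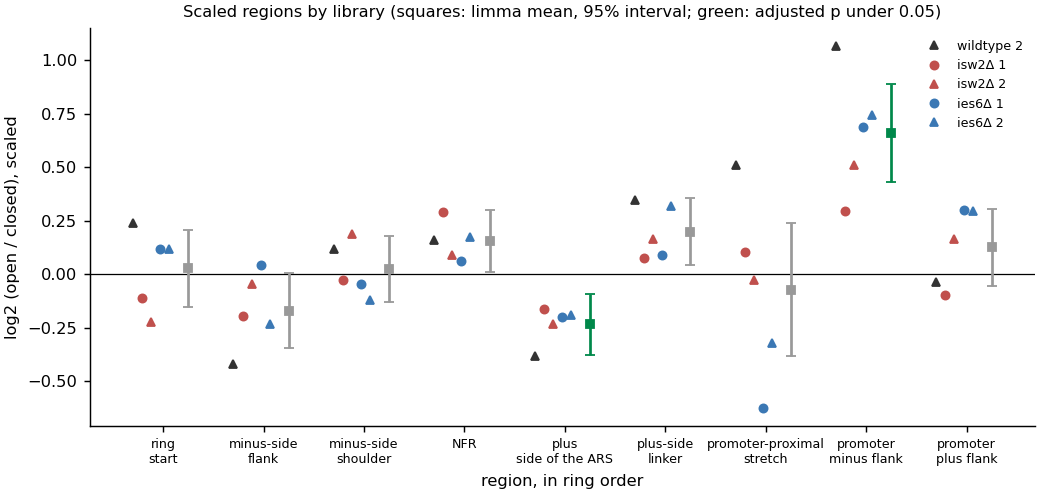
Scaled log2 ratio of open to closed molecules (y axis) in the 9 regions, in ring order. Points are libraries, squares are limma means with 95% intervals and green squares passed an adjusted p of 0.05. The plus side of the ARS is below 0 and the promoter minus flank above 0 in all 5 libraries, and the libraries spread most in the promoter-proximal stretch.

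Beside the promoter center, open molecules stayed higher after scaling. In the promoter minus flank, the scaled level was 0.931 in closed and 1.95 in open molecules of wildtype, 1.67 and 2.04 in isw2Δ replicate 1, 1.5 and 2.14 in isw2Δ replicate 2, 0.822 and 1.32 in ies6Δ replicate 1, and 0.863 and 1.44 in ies6Δ replicate 2. Closed molecules of isw2Δ were above the closed molecules of the other libraries and above the open molecules of ies6Δ. The log2 ratio was 0.66 ± 0.10 (SE, n = 5, limma adjusted p = 0.000848). It was 1.18 in the window next to the promoter center (columns 901 to 930, adjusted p = 0.00106) and 0.52 in the window before it (columns 871 to 900, adjusted p = 0.0352, lost without isw2Δ replicate 1 or either ies6Δ library, at 0.0580 to 0.0929), whereas the window next to column 840 had 0.07 (adjusted p = 0.639). In the first of these, the ratio was 2.62 for wildtype, 1.39 and 2.52 for the isw2Δ replicates, and 2.53 and 2.53 for those of ies6Δ. On the other side of the promoter center, the window of 30 columns next to it had a log2 ratio of 0.68 (adjusted p = 0.00988, but 0.0580 without isw2Δ replicate 1 and 0.0530 without ies6Δ replicate 2), with ratios of 1.68 for wildtype, 1.42 and 1.17 for the isw2Δ replicates, and 2.06 and 1.85 for those of ies6Δ. The promoter plus flank as a whole had 0.13 ± 0.08 (adjusted p = 0.221). These windows adjoin the columns that set the classes. When the classes were set from the promoter center without its outer 30 columns on each side, the log2 ratio of the minus flank was 0.25 and did not pass (limma adjusted p = 0.0743). That of columns 871 to 900 was then 0.14 (adjusted p = 0.37), and that of columns 901 to 930 was 0.56 (adjusted p = 0.0488). The log2 ratio of the minus flank was 1.03 on forward reads alone (adjusted p = 0.0134) and 0.15 on reverse reads alone (adjusted p = 0.305), and the difference between the strands was not tested. At columns 871 to 900, it was 0.89 on forward reads (adjusted p = 0.0258) and 0.09 on reverse reads (adjusted p = 0.76). The call of that window was lost in 9 of 19 alternatives.

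The same windows had the highest ratios before scaling. The level at columns 901 to 930 was 0.620 in closed and 2.05 in open molecules of wildtype, 1.12 and 2.74 in isw2Δ replicate 1, 0.828 and 2.72 in isw2Δ replicate 2, 0.608 and 2.168 in ies6Δ replicate 1, and 0.753 and 2.32 in ies6Δ replicate 2. Log2 ratios were 1.64 (limma adjusted p = 6.48e-10) at columns 901 to 930, 1.02 (adjusted p = 4.58e-07) in the first window after the promoter center and 1.0 (adjusted p = 4.58e-07) at columns 871 to 900.

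Intermediate molecules differed less from closed ones in their origin-side level. This comparison was chosen after seeing the data, and it shares the closed molecules with the one above. Without any scaling, the NFR was higher in intermediate than in closed molecules of every library, with levels of 1.90 in closed and 2.06 in intermediate molecules of wildtype, 1.73 and 2.11 in isw2Δ replicate 1, 2.06 and 2.16 in isw2Δ replicate 2, 1.85 and 2.21 in ies6Δ replicate 1, and 2.12 and 2.50 in ies6Δ replicate 2. The log2 ratio was 0.19 ± 0.07 (SE, n = 5, limma adjusted p = 0.0234), and 5 of 9 regions were higher in intermediate molecules (55.6%). The plus side of the ARS was lower in intermediate molecules in 5 of 5 libraries, with a log2 ratio of -0.15 ± 0.07 that was not past the threshold (adjusted p = 0.0556). Its level was 1.01 in closed and 0.855 in intermediate molecules of wildtype, 1.07 and 0.923 and then 1.15 and 1.02 in isw2Δ, and 1.05 and 0.983 and then 0.985 and 0.947 in ies6Δ. After scaling, 3 regions were higher (33.3%), among them the NFR with 0.23 (adjusted p = 0.00577), and 2 were lower (22.2%), the plus side of the ARS with -0.22 (adjusted p = 0.00577) and the minus-side flank with -0.27 (adjusted p = 0.00167). The unscaled level of the NFR was therefore in the order closed, intermediate and open in 5 of 5 libraries, whereas the plus side of the ARS was lowest in intermediate molecules in each of them.

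At the level of the single molecule, an NFR was called open when its methylation was at least 2 times the array mean. Among open-promoter molecules, the NFR was open in 46.5% (wildtype forward) to 82.1% (reverse reads of isw2Δ replicate 2), and among closed-promoter molecules in 38.1% (isw2Δ replicate 1 reverse) to 60% (isw2Δ replicate 2 reverse, 12 of 20). In wildtype, 46.5 and 68.6% of open-promoter molecules and 40.7 and 47.9% of closed-promoter molecules had an open NFR, on forward and reverse reads. In ies6Δ replicate 1, these shares were 64.5 and 72.2% against 54.3 and 47.8%. In isw2Δ replicate 1, they were 65.7 and 73.8% against 47.4 and 38.1%. All 4 combinations of open and closed NFR and promoter were thus present in every library.

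**Figure D5:**
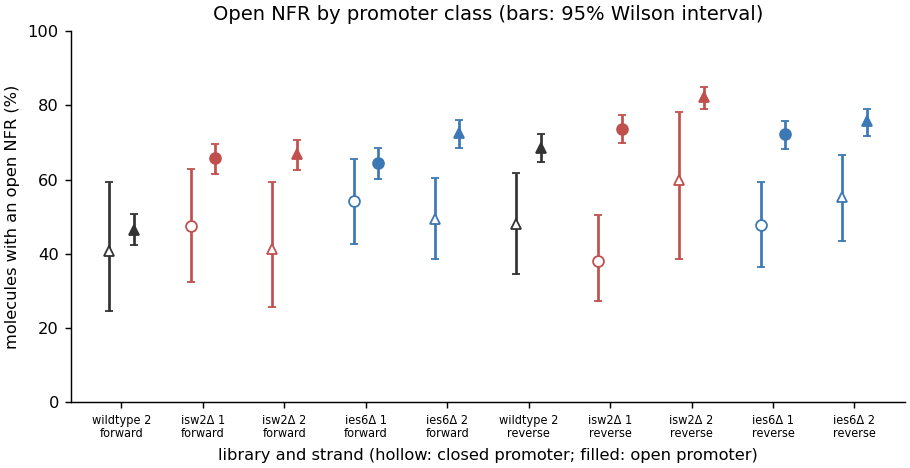
Share of molecules with an open NFR (y axis, percent) among closed-promoter (hollow) and open-promoter (filled) molecules in each library and strand. Bars are 95% Wilson intervals, which cover counting error only. The filled symbol is the higher one in all 10 pairs, and the hollow symbols have wide intervals because closed molecules were few.

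The odds of an open NFR were higher in open-promoter molecules in all 10 combinations of library and strand, with odds ratios of 1.25 (wildtype forward) to 4.52. The 95% interval of the odds ratio was above 1 in 8 of them. It covers the counting of molecules only, and the 10 combinations come from 5 libraries. Averaged over strands, the odds ratio was 1.72 for wildtype, 3.10 and 2.96 for the isw2Δ replicates, and 2.08 and 2.61 for those of ies6Δ. The mean log odds ratio was 0.89 ± 0.25 (SD, n = 5), an odds ratio of 2.43, and the exact sign-flip permutation test over libraries gave p = 0.0625 (two-sided), the smallest that 5 libraries allow. These calls use levels as measured, so the level of the whole molecule is part of them.

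A molecule with few calls near the end of the ring could be counted as closed. The share of molecules with no methylated position in the promoter plus flank was 6.90 to 33.3% in closed and 2.03 to 20.2% in open molecules, and was highest in wildtype in both classes. When only molecules with a call in columns 1 to 60 and in the promoter plus flank were kept, the origin-side log2 ratio was 0.28 in place of 0.40, and it stayed positive in 5 of 5 libraries. In this setting, the scaled plus side of the ARS (-0.18, limma adjusted p = 0.0261) and promoter minus flank (0.83, adjusted p = 1.257e-05) kept their calls, and the scaled plus-side linker passed the threshold as well (0.25, adjusted p = 0.00531). The part of incomplete calls in the remaining difference was not tested.

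The scaled difference between open and closed molecules was compared between genotypes, with wildtype as a single library. At the promoter minus flank and the ring start, a contrast with that library passed but isw2Δ against ies6Δ did not (limma adjusted p = 0.0732 and 0.0817), and at the promoter-proximal stretch all 3 contrasts passed. In the promoter minus flank, wildtype had a scaled log2 ratio of open to closed of 1.06, isw2Δ a mean of 0.40 and ies6Δ a mean of 0.72. The difference between isw2Δ and wildtype was -0.66 (limma adjusted p = 0.00214), and that between ies6Δ and wildtype was -0.35 (adjusted p = 0.0893). The former was lost without isw2Δ replicate 1 (0.0518). In the promoter-proximal stretch, wildtype had a log2 ratio of 0.51, isw2Δ a mean of 0.04 and ies6Δ a mean of -0.47. The difference of isw2Δ from wildtype was -0.47 (limma adjusted p = 0.0204), but this call was lost whenever 1 mutant library was left out (0.0510 to 0.341), held in only 3 of 16 alternatives and had the opposite sign in 5. The difference of ies6Δ from wildtype was -0.98 (adjusted p = 2.214e-05), while isw2Δ exceeded ies6Δ by 0.51 (adjusted p = 0.00378). Of these, the former was lost without either isw2Δ library (0.0979 each) and the latter without isw2Δ replicate 1 (0.325), isw2Δ replicate 2 (0.280) or ies6Δ replicate 1 (0.212). At the ring start, the log2 ratio was 0.24 in wildtype and -0.17 in isw2Δ (difference -0.40, adjusted p = 0.0363, but 0.0698 without either ies6Δ library). In all, 3 of 9 regions passed for isw2Δ against wildtype (33.3%), 1 of 9 for ies6Δ against wildtype (11.1%) and 1 of 9 for isw2Δ against ies6Δ (11.1%). In the NFR and on the plus side of the ARS, no contrast passed, with adjusted p of 0.691 to 0.840 and of 0.314 to 0.998.

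These contrasts rested on 2 residual degrees of freedom per region, on the 2 pairs of mutant libraries, and on 27 and 48 closed wildtype molecules. The spread was pooled over all 9 regions, which then shared an SE of 0.15 against wildtype and 0.12 for isw2Δ against ies6Δ. The p-values treat the regions as independent and do not measure the spread of a single region. At the ring start, the call of isw2Δ against wildtype was lost in 11 of 16 alternatives. With 1 array level for all libraries, with reads stratified by origin-side level, on reverse reads alone, or with molecules that had calls at both ends, none of the 27 contrasts passed in limma, while 1 to 10 of them had an unadjusted p below 0.05. Without isw2Δ replicate 1, ies6Δ replicate 1 or ies6Δ replicate 2, 1, 2 and 3 of the contrasts passed, and without the wildtype library 1 of the remaining 9 did.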

How the data were processed

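MATAC-Seq reads of 5 libraries were used. The authors called methylated bases with Megalodon on Nanopore reads of rings treated with EcoGII, M.CviPI and M.SssI, applied their own score thresholds, and deposited a fraction of 0 or 1 for each base of each molecule, by locus and strand (build R64 in the submitters' notes). Depth was up to 780 ARS315 molecules per strand. An unmethylated call and an uncallable base were both 0, and each ring column was called on one strand only.

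Levels of single molecules were divided by the array mean of the same library and strand. For the origin-side ratio and the odds ratio, logarithms were averaged over strands. For windows and regions, forward and reverse class means were added before a single log2 ratio was taken, and unscaled levels were divided by the added array means. Libraries were the replicates. Single values were tested by exact sign-flip permutation, and 35 windows and 9 regions with limma 3.58.1 in R 4.3.3 (intercept only, Benjamini-Hochberg adjustment, threshold 0.05). SE, intervals and p-values of limma use variances moderated over all windows or all regions. Class means were computed with Python 3.11.15, NumPy 2.4.6 and pandas 2.3.3, and the fits were checked on simulated data. Alternatives were strands, thresholds, promoter columns, array level, complete reads, scaling, window size, weights and left-out libraries. All 9 regions were reported, and of the windows up to 3 per direction with the largest ratio among those past the threshold with 1 sign in all 5 libraries. Members, regions and tests were chosen with earlier results of these data known. The 6 positions of highest methylation were taken from all molecules. Other origins were not used here.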

Additional observations from a re-analysis of the deposited data

Results flagged for a closer look

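In 5 of 27 contrasts, the scaled log2 ratio of open to closed molecules passed a direct test of the difference between genotype means in limma, and each of these calls was lost in several alternatives. For isw2Δ against wildtype, the differences were -0.40 at the ring start (95% interval -0.71 to -0.10), -0.47 in the promoter-proximal stretch (-0.78 to -0.17) and -0.66 in the promoter minus flank (-0.97 to -0.36). For ies6Δ against wildtype, the difference in the promoter-proximal stretch was -0.98 (-1.29 to -0.68), and isw2Δ exceeded ies6Δ there by 0.51 (0.26 to 0.76). All regions of a contrast shared 1 pooled SE, so these intervals do not measure the spread of a single region. The promoter-proximal stretch is 30 columns wide, and its levels of 0.337 to 0.734 in closed molecules were among the lowest of the ring. Wildtype was 1 library, so its own spread between libraries was not measured, and its deviation as a genotype cannot be told apart from that of the library.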

How the results depend on the processing

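The origin-side log2 ratio (0.40) kept its sign in all 14 alternatives, 0.28 to 0.69, except for 0.05 with intermediate in place of open molecules (an alternative chosen after seeing the data), and the log odds of an open NFR stayed between 0.39 and 1.32. Without 1 library they were 0.37 to 0.42 and 0.83 to 0.98. Replicate numbers were shared by isw2Δ and ies6Δ only. The correlation of their deviations was 0.198 for both numbers, a single value, since the 2 libraries of a genotype deviate from their mean by opposite amounts. Whether the numbers pair the samples cannot be told from it. With the replicate number as a block, the values were 0.42 and 0.90, and 32 windows and 8 regions passed unscaled, since the promoter-proximal stretch was lost (limma adjusted p = 0.0511). Scaled, 5 windows and 1 region passed, with the plus side of the ARS lost (0.0536), as did 2 genotype contrasts.

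Unscaled, 28 windows and 9 regions passed. With intermediate molecules 4 and 5 did, and 16 of 16 windows of 60 columns passed. Without 1 library, 27 to 32 windows and 7 to 9 regions passed.

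Scaled, 5 windows and 2 regions passed. With genotypes weighted equally 12 and 5 did, with thresholds of 0.75 and 3 it was 2 and 1, with 1 array level 2 and 1, on forward reads 3 and 1, on reverse reads 0 and 0 (7 and 0 at an unadjusted p below 0.05 in limma), and with stratified molecules 3 and 1. With a difference of means 3 windows passed, and with 60 columns 0 (5 unadjusted). With a single threshold of 1, 5 regions passed, with classes from the promoter center without its outer 30 columns on each side (the narrower promoter center) it was 1, with intermediate molecules 5 and with scaled class means 4. Without 1 library, 1 to 6 windows and 1 to 2 regions passed. Of 27 genotype contrasts, 5 passed. With classes from the narrower promoter center it was 2, with 1 array level 0 (1 unadjusted), with calls at both ends 0 (4), on forward reads 1, on reverse reads 0 (2), with stratified molecules 0 (10), and without 1 library 1 to 6.

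Signs changed for small log2 ratios and also for larger ones, among them genotype contrasts that had passed, and the cause was not tested. Intermediate molecules gave unscaled values of -0.0461 in the minus-side flank, -0.0879 in the shoulder, -0.15 on the plus side of the ARS and -0.00689 in the promoter-proximal stretch. The scaled ring start was -0.0676 with thresholds of 0.75 and 3, -0.12 with calls at both ends, -0.00204 on reverse reads, and -0.0249 to 0.0902 without 1 library. The minus-side flank was 0.0211 with scaled class means. The shoulder was -0.0354 with calls at both ends, -0.0317 with intermediate molecules, -0.0236 on reverse reads, -0.10 with scaled class means, -0.11 with stratified molecules, and -0.0182 to 0.0579 without 1 library. The promoter-proximal stretch was 0.0252 with genotypes weighted equally, 0.0363 with thresholds of 0.75 and 3, 0.55 on reverse reads, 0.0164 with scaled class means, 0.0984 with stratified molecules, and -0.217 to 0.0663 without 1 library. The promoter plus flank was -0.0562 with calls at both ends. For isw2Δ against wildtype, the promoter-proximal stretch was 0.44 with classes from the narrower promoter center, 0.0518 with 1 array level, 0.0283 with calls at both ends, 0.62 on reverse reads and 0.97 with stratified molecules, and the promoter minus flank was 0.0457 with calls at both ends and 0.0492 with stratified molecules.

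Closed molecules numbered 20 to 77 per library and strand, and 5 libraries allow no exact p below 0.0625. Stratification found no usable bin in isw2Δ replicate 2, so its values rest on 4 libraries. Of 10 bins, 2 were usable in wildtype, 4 in isw2Δ replicate 1 and 8 in each ies6Δ library.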
